A study of Mus musculus with 21 samples.

Results

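The genes described here are 54 neighbours of Nr4a1 on mouse chromosome 15, the gene that encodes the orphan nuclear receptor Nur77. They were taken from a list of symbols near Nr4a1, after each RefSeq transcript of the count table was matched to its gene and the transcript with the highest mean count was kept. Together they are 54 of the 25067 genes of the table and 53 of the 12529 genes that passed a filter on low counts and were tested. The listed genes span chr15:98538690-103530056 (GRCm38.p6), a stretch of 4.99 Mb, in which 29 lie on the centromere side of Nr4a1 and 25 on the telomere side. All positions are those of RefSeq on GRCm38.p6, and mm10, the build in the submitters' processing notes, is the same assembly.

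The RNA came from macrophages derived from bone marrow, grown from the marrow of male C57Bl6/J mice aged 6 to 12 weeks over 7 days in medium with supernatant of L929 fibroblasts. Wild-type (WT) libraries carry the genotype tag wt, and libraries titled Nur77-KO carry the tag cre. The sources used here do not give the deleted exons, the strain in which the line was made, its later crosses or the promoter of any Cre. The second group is therefore called labelled KO. Cells received lipopolysaccharide (LPS), a bacterial wall component, at 100 ng/ml for 0, 4 or 18 h, with 4 libraries of WT and 3 of labelled KO per time and 21 in all. The labels number the libraries (1 to 4 in WT, 2 to 4 in labelled KO) without saying that a number is a mouse, and every p-value below reflects only how far these libraries spread.

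Genes that lie close to a targeted gene are inherited together with it. A stretch of chromosome from the strain in which a gene was targeted can therefore travel with the altered allele through later crosses, and an inserted cassette or a deletion can also alter transcription nearby. The comparison asks how far RNA from the neighbours of Nr4a1 differed between the genotypes. Nr4a1 itself is an immediate early gene of the NR4A family, whose members bind DNA at a site called NBRE without a known classical ligand and are induced briefly by inflammatory stimuli in macrophages. Its neighbours share no single function. They include transcription factors, RNA-binding proteins, receptors of the transforming growth factor beta family, cytoskeletal proteins and enzymes of lipid metabolism.

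Promoter sequences are shown for Lima1, Pou6f1, Spats2 and Cers5, the 4 listed genes with a window in the table whose differences passed 3-fold at 1 time or more and stayed called there in every alternative fit and without each library in turn. Each window runs from 250 bases before to 50 bases after a transcript start in the RefSeq table of GRCm38.p6, and is printed in the direction of transcription. Capitals mark the GC box, the letters GGGCGG on either strand, including overlapping matches.
Lima1, chr15:99820100-99820399, minus strand: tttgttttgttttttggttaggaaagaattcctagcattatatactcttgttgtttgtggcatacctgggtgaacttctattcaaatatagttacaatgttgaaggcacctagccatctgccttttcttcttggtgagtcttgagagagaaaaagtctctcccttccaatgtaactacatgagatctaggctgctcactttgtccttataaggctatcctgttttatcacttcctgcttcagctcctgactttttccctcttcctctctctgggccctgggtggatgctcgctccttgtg
Pou6f1, chr15:100599935-100600234, minus strand: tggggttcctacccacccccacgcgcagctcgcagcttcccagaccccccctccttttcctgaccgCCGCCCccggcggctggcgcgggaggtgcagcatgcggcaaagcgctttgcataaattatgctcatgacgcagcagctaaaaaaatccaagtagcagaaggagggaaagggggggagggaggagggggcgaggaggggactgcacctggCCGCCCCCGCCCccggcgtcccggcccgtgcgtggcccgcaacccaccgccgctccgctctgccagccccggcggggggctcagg
Spats2, chr15:99126595-99126894, plus strand: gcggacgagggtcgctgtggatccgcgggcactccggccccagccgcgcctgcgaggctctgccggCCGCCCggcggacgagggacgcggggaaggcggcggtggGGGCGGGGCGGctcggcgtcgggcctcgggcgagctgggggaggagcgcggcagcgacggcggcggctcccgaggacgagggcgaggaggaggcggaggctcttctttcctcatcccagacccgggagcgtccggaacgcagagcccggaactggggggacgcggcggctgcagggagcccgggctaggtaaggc
Cers5, chr15:99772466-99772765, minus strand: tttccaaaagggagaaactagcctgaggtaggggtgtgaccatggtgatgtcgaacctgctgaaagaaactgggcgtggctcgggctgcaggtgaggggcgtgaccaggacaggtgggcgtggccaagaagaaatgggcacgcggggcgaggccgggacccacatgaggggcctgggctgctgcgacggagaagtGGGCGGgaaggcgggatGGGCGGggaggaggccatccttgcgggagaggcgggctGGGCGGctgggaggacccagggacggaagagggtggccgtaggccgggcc
The Lima1 window lies inside the span of the gene, at the start of a shorter transcript, and holds no GC box. Each of the other 3 windows holds 3, and that of Spats2 also lies inside its gene's span (chr15:99125926-99213215). Of the 54 genes, 46 had at least 1 window in the table, 59 windows in all. The GC box was found in 45 of these 59 windows (76.3%), against 35.7% of the 32851 windows of all genes, which include genes that were not tested here. The E-box CACGTG was in 9 (15.3%, against 7.15%), and the cyclic AMP response element TGACGTCA in 1, that of Troap (1.69%, against 1.79%). Neither AAAGGTCA, the NBRE letters, nor TGANTCA, the AP-1 letters, was in any of the 59, against 1.51% and 7.81% of all windows. A match is a description of letters, and a window without one says nothing about where a factor binds.

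The targeted gene was examined first. Nr4a1 stood at 13.4, 16.2, 15.2 and 14 CPM (counts scaled to the library total) in WT numbers 1 to 4 at 0 h, and at 12.4, 12.2 and 12.4 in labelled-KO numbers 2 to 4. The groups did not overlap, but the log2 fold change of labelled KO over WT, -0.25 ± 0.30 (SE), was not called by the quasi-likelihood test of edgeR, Benjamini-Hochberg adjusted over all tested genes (adjusted p = 0.75). At 4 h WT held 7.25, 2.16, 1.74 and 1.30 CPM and labelled KO 0.531, 0.869 and 1.21, a log2 fold change of -1.77 ± 0.50 that passed the edgeR test after Benjamini-Hochberg adjustment (adjusted p = 0.0401). That call was lost without WT number 1 (-0.85), without any of the 3 labelled-KO libraries (-2.17 to -1.55), with limma-voom, with only the 4 h groups fitted and with the replicate number as a block. At 18 h the order was the other way round, with 1.04, 1.33, 0.965 and 1.08 CPM in WT and 2.96, 2.10 and 3.48 in labelled KO (log2 fold change 1.35 ± 0.44, adjusted p = 0.0232 by edgeR with Benjamini-Hochberg adjustment). This call was lost with the stromal markers described next as a covariate (1.05) and without WT number 1, labelled-KO number 2 or number 4 (1.16 to 1.52 over all libraries left out). Reads from exons outside the deleted part would be counted here, so these values do not settle what the genotype label stands for.

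The cells had the markers of macrophages throughout. The 10 macrophage markers summed to 13439 to 25570 CPM per library, and all were detected in each group. Other cell types' markers were low in sum but uneven. Summed neutrophil markers at 0 h were 18.9 to 36 CPM in WT and 67.6 to 118 in labelled KO, with all 7 tested markers of 10 called higher there. At 4 h they were 93.6 to 140 and 136 to 195, and at 18 h 183 to 267 and 318 to 449, with 5 called higher. Summed stromal markers, 10 genes of matrix-producing cells of which 8 were tested, ran at 0 h from 3.14 to 118 CPM in WT and from 120 to 197 in labelled KO, with 1 called higher, and at 4 h from 21.5 to 75.7 and from 42 to 488. At 18 h they ran from 23.6 to 68.2 CPM in WT and were 43, 191 and 832 in labelled-KO numbers 2, 3 and 4, with 6 called higher. At 18 h 3 of the 5 tested dendritic cell markers were also called higher, with sums of 14.2 to 17.5 CPM in WT and 30.1 to 35.3 in labelled KO. Summed endothelial markers at 4 h went the other way, 57.5 to 74.4 CPM in WT and 41 to 45.3 in labelled KO, with 1 called lower. Of the 10 macrophage markers, 1 was called higher in labelled KO at 0 h and 1 lower at 4 h. At 18 h 3 of them were called higher and 2 lower. Library totals over named genes ran from 12301504 to 29650081 counts.

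Before LPS, a small number of neighbours differed between the genotypes. A gene is called here when its adjusted p is under 0.05. At 0 h 5 of the 53 tested neighbours were called (9.43%, where 3.98% of all tested genes were), 2 higher in labelled KO (1.11% of all genes were called higher) and 3 lower (2.87% were called lower). Lima1 and Acvrl1 were higher, and Acvr1b, Gpr84 and Spats2 were lower. At 4 h 2 neighbours were called (3.77%, against 5.56% of all genes), Lima1 and Pou6f1. Both were higher in labelled KO, where 2.87% of all genes were called higher and 2.7% lower. At 18 h 19 were called (35.8%, against 32.2% of all genes), 8 higher (16.6% of all genes) and 11 lower (15.6%). With upper-quartile factors in place of the trimmed-mean (TMM) library scaling the split was 6 and 13, and with median-of-ratios factors 11 and 10. In the mean of the 3 times, in which each time has the same weight, 16 were called (30.2%, against 25.1%), 7 higher (12.3%) and 9 lower (12.9%).

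Over all libraries, the shares at 4 h, at 18 h and in the mean of the times were near those of all genes, and the counts at 0 and 4 h rest on few genes. The count at 0 h fell to 3 without labelled-KO number 4. The count at 18 h fell to 11 without labelled-KO number 4 of that time, the library of highest stromal sum, and to 9 with the mean of the stromal markers as a covariate (17%, against 21.5% of all genes in that fit), while the 9 were all among the 19. With that covariate the count in the mean of the times was 8 (15.1%, against 9.07% of all genes in that fit). Stromal sums and genotype go together in part, as given above, so a call lost with this covariate need not mean a smaller difference. At 18 h the log2 fold change of Atf1 was 0.28 with and without it, and that of Mfsd5 went from -0.38 to -0.23. The median difference of the 53, on the log2 scale, was 0.04 at 0 h, -0.03 at 4 h, -0.06 at 18 h and -0.02 in the mean of the times, and that of all genes was 0.01, -0.01, -0.01 and -0.01. Pou6f1, Acvrl1 and Spats2 were called at 2 of the 3 times, and Lima1 at all 3. The share of all tested genes called at more than 1 time is not given here, so this describes the listed genes alone.

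**Figure D1:**
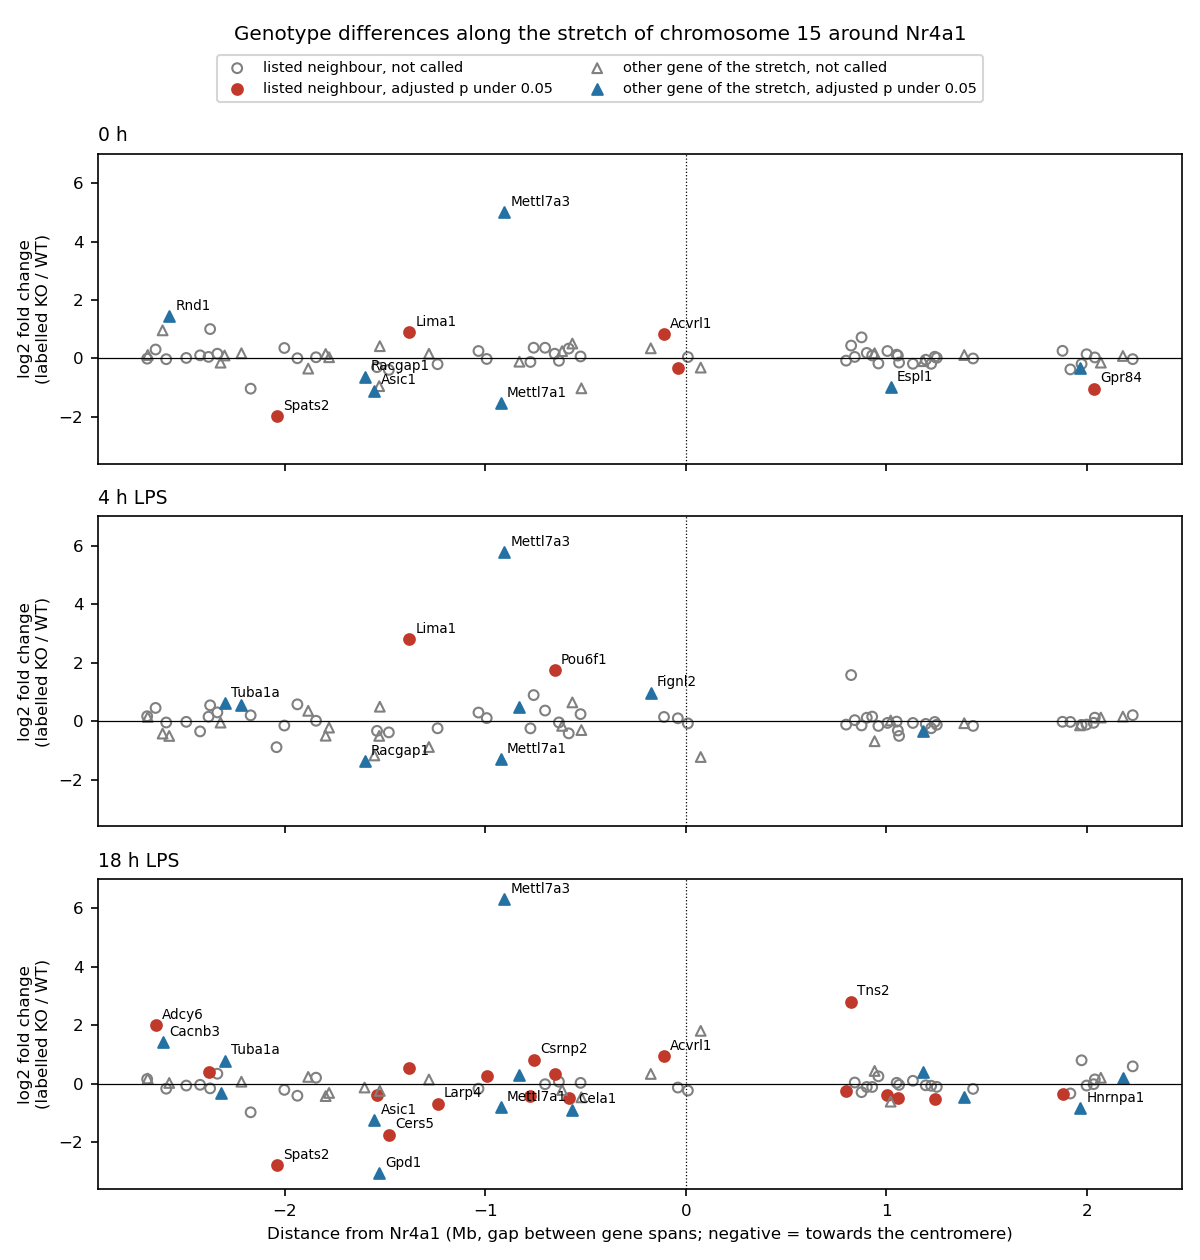
Log2 fold change of labelled KO over WT (vertical axis) against distance from Nr4a1 in Mb (horizontal axis, negative towards the centromere), at 0, 4 and 18 h. Circles are listed neighbours and triangles the other tested genes of the stretch, filled where the adjusted p is under 0.05, and the dotted line is Nr4a1. At 18 h the 19 called neighbours are spread over the whole stretch, among many genes near 0. Values of Mettl7a3 and of Gpd1 at 18 h are fitted values in which 1 group held 0 to 3 counts, and their size depends on the prior count.

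Larger differences were counted with a second condition, at least 1.5-fold. In the mean of the times 8 of the 53 neighbours were called with that size (15.1%, against 6.63% of all tested genes). These were Lima1, Tns2, Pou6f1, Acvrl1, Csrnp2 and Adcy6, which were higher in labelled KO, and Spats2 and Cers5, which were lower. With Gpr84 at 0 h and Larp4 at 18 h, 10 neighbours were called with that size in at least 1 of the 4 comparisons (18.9%, against 19.8% of all tested genes). Values that do not overlap between the groups were found for 18 neighbours at 0 h (17.7% of all tested genes), 12 at 4 h (17.7%) and 19 at 18 h (35.8%), which is 34%, 22.6% and 35.8% of the 53.

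Lima1, which encodes an actin-binding LIM protein that cross-links and stabilises filaments, stood apart at all 3 times. At 0 h it was at 123, 115, 113 and 113 CPM in WT numbers 1 to 4 and at 208, 210 and 233 CPM in labelled-KO numbers 2 to 4. At 4 h WT libraries held 69.7, 80.4, 74.9 and 69.4 CPM, and labelled-KO libraries 526, 458 and 555. At 18 h the values were 86.7, 86.8, 93.1 and 87.3 in WT and 119, 135 and 131 in labelled KO. No labelled-KO library overlapped a WT library of its time, and the lowest labelled-KO value at 4 h, 458 CPM, was above every WT value at any time. The log2 fold change was 0.90 ± 0.08 (SE) at 0 h, 2.80 ± 0.08 at 4 h, a 6.99-fold difference, and 0.54 ± 0.08 at 18 h. Adjusted p-values (edgeR, Benjamini-Hochberg) were 1.38e-07, 6.29e-16 and 2.81e-05. Across all alternative fits the value at 4 h stayed between 2.74 and 2.88. Lima1 (NM_023063, chr15:99778468-99875477) lies 1.38 Mb from Nr4a1 on the centromere side, and a long noncoding RNA that the count table does not list overlaps it over 18075 bases.

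Tns2 encodes a tensin, a protein of focal adhesions, and was barely counted. Its 3 labelled-KO libraries at 18 h held 0.348, 0.438 and 1.35 CPM and its 4 WT libraries 0, 0.0391, 0.161 and 0.227, from 28 and 7 counts in all. The groups did not overlap, and the log2 fold change was 2.81 ± 0.73 (edgeR with Benjamini-Hochberg adjustment, adjusted p = 0.00568). Labelled-KO number 4, the library with stromal markers at 832 CPM, held the highest value. Leaving it out gave 1.92, which was not called, and in the mean of the times (1.61 ± 0.41) the call was lost with the stromal mean as a covariate (1.26). Bin2, which encodes a membrane-bending protein of blood cells found at podosomes, was at 113, 122, 103 and 104 CPM in WT at 18 h and at 76.5, 77.5 and 81.1 in labelled KO. Its groups did not overlap either, and the log2 fold change was -0.49 ± 0.13 (edgeR with Benjamini-Hochberg adjustment, adjusted p = 0.00611). Troap, a partner of the adhesion protein trophinin, held at most 38 counts in a library and was not called between genotypes at any time.

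Among 10 DNA-binding factors, 1 was called at 4 h and 3 at 18 h, all of them higher in labelled KO, where 2.87% and 16.6% of all tested genes were. Pou6f1, a POU homeodomain factor, was at 17.3, 11.2, 11.9 and 11.9 CPM in WT and at 46, 43.9 and 43.2 CPM in labelled KO at 4 h. The groups were far apart, with a log2 fold change of 1.75 ± 0.12 and an adjusted p of 2.31e-09 (edgeR, Benjamini-Hochberg). At 0 h they overlapped, with 14.5, 14.9, 17 and 16.4 in WT and 18, 18.6 and 16.1 in labelled KO (0.16 ± 0.11, adjusted p = 0.546 by edgeR with Benjamini-Hochberg adjustment). At 18 h WT held 21.4, 23.1, 21.6 and 19 CPM and labelled KO 28.4, 24.2 and 27.6. That difference was called (0.33 ± 0.12, adjusted p = 0.0355 by edgeR with Benjamini-Hochberg adjustment), but the call was lost with upper-quartile factors (0.29), without the filter (0.31), with transcripts summed per gene (0.32) and with the stromal covariate (0.35). It was also lost without any 1 of WT numbers 1, 3 and 4 and labelled-KO numbers 2 and 4 (0.28 to 0.39 over all libraries left out). Pou6f1 (NM_001304965, chr15:100575318-100600061) lies 0.654 Mb from Nr4a1 on the same side as Lima1.

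Csrnp2, a nuclear cysteine- and serine-rich protein, was at 1.95, 1.25, 2.57 and 3 CPM in WT and at 2.96, 3.42 and 5.05 in labelled KO at 18 h. The groups overlapped by a small margin (log2 fold change 0.83 ± 0.25, adjusted p = 0.0131 by edgeR with Benjamini-Hochberg adjustment). The call was lost without labelled-KO number 4 (0.56), with the stromal covariate (0.68) and with only the 18 h libraries fitted (0.84). In the mean of the times Csrnp2 was called at 0.70 ± 0.15, and this was lost with the stromal covariate (0.54). Atf1, a factor that binds cyclic AMP response elements, was called at 18 h with a small difference of 0.28 ± 0.09, which was lost with the stromal covariate (0.28) and without WT number 2 or labelled-KO number 3 (0.17 to 0.34 over all libraries left out). Tfcp2, a CP2 family factor, was called in the mean of the times at 0.24 ± 0.08, a call lost in 3 alternatives and without any 1 of 6 libraries (0.21 to 0.28). Atf7, a relative of Atf2, and Sp1, which binds GC boxes, had log2 fold changes between -0.18 and 0.10 at the 3 times and were not called.

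Among 5 genes of chromatin and the transcription machinery the differences were small. Smarcd1, a subunit of the SWI/SNF remodelling complex, was lower in labelled KO at 18 h (-0.40 ± 0.11) and in the mean of the times (-0.34 ± 0.06, adjusted p = 0.000401 by edgeR with Benjamini-Hochberg adjustment). Cbx5, a heterochromatin protein, was lower in the mean of the times (-0.24 ± 0.08), and Kmt2d, a histone methyltransferase, was higher at 18 h (0.41 ± 0.15). The Cbx5 call was lost with the replicate block (-0.19) and the stromal covariate (-0.32) and without labelled-KO number 2 at 4 h or number 4 at 18 h (-0.27 to -0.18 over all libraries left out). The Kmt2d call was lost in 4 alternatives and without any 1 of WT numbers 1, 3 and 4 and labelled-KO numbers 3 and 4 (0.28 to 0.53). Ccnt1, a cyclin of the elongation factor that releases paused polymerase, and Mcrs1 were not called in any of the 4 comparisons.

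Among 8 genes of RNA processing and translation, 4 were called at 18 h and all 4 were lower in labelled KO, where 15.6% of all tested genes were. Spats2, which is named for its expression in spermatogenesis and belongs to a family of RNA-binding proteins, had the largest fall of the 53. At 0 h it was at 4.58, 4.2, 4.12 and 4.87 CPM in WT and at 1.06, 1.48 and 0.852 in labelled KO. At 18 h WT libraries held 5.92, 5.67, 3.46 and 4.98 CPM and labelled-KO libraries 0.522, 0.701 and 0.925. Both times separate the groups by a wide gap, with log2 fold changes of -1.98 ± 0.26 at 0 h (3.95-fold lower) and -2.79 ± 0.31 at 18 h (6.90-fold lower). The adjusted p-values by edgeR with Benjamini-Hochberg adjustment were 4.82e-05 and 1.62e-06.

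At 4 h Spats2 was low in both genotypes, 1.11, 1.31, 0.640 and 1.12 CPM in WT and 0.212, 0.435 and 0.893 in labelled KO. The groups overlapped there, and the difference, -0.89 ± 0.38, was not called (adjusted p = 0.182 by edgeR with Benjamini-Hochberg adjustment). The test of a change in the genotype difference between 0 and 4 h was not called either (1.09 ± 0.48, adjusted p = 0.439 by the same edgeR test with Benjamini-Hochberg adjustment). Spats2 (NM_139140, chr15:99125926-99213215) lies 2.04 Mb from Nr4a1 on the centromere side.

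Larp4, which binds poly(A) tails and stabilises messenger RNA, was at 69.4, 82.8, 78.3 and 67.8 CPM in WT and 38.9, 57.4 and 43.3 in labelled KO at 18 h. The groups did not overlap (log2 fold change -0.68 ± 0.15, adjusted p = 0.00135 by edgeR with Benjamini-Hochberg adjustment). Eif4b, a cofactor of the helicase that opens messenger RNA for ribosomes, was called at 18 h with a small difference of -0.25 ± 0.08. Tarbp2, a partner of Dicer, was lower at 18 h (-0.52 ± 0.16). Both calls were lost with the stromal covariate (-0.25 and -0.49). The Eif4b call was also lost on leaving out WT number 2, or number 2 or 4 of labelled KO (-0.32 to -0.20), and the Tarbp2 call without labelled-KO number 3 or 4 (-0.69 to -0.43). Tarbp2 and Pcbp2 each overlap Map3k12 on the chromosome, and their reads may not be separable, because no source used here names the counting tool or its use of strand. In all, 15 of the 54 genes overlap another gene of the count table, Larp4, Bin2 and Acvr1b among them. Larp4 does so with a long noncoding RNA over 1121 bases. Bin2 and Acvr1b do so only with microRNA genes, over 67 and 63 bases. Dazap2, Ddx23 and Pcbp2 stayed within a log2 fold change of 0.17 of WT in either direction at each time and were not called.

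The nearest listed genes on the centromere side of Nr4a1 are a pair of type I receptors of the transforming growth factor beta family. Acvrl1, the receptor known as ALK1 that signals for circulating bone morphogenetic proteins, lies 0.109 Mb away. At 0 h it was at 13.1, 16.7, 18.6 and 18.9 CPM in WT and at 28, 31.9 and 29.9 in labelled KO, and at 18 h at 46.3, 47.6, 52.6 and 54.3 in WT and at 82.4, 87 and 120 in labelled KO. Neither time had overlapping groups, and the log2 fold changes were 0.84 ± 0.15 and 0.95 ± 0.14 (edgeR with Benjamini-Hochberg adjustment, adjusted p = 0.00133 and 5.63e-05). The highest value, 120 CPM, was that of labelled-KO number 4, and the difference at 18 h was still called without it (0.76) and with the stromal covariate (0.81). At 4 h the groups overlapped at 6.95 to 10.5 CPM in WT and 7.22 to 11.2 in labelled KO (0.14 ± 0.18, adjusted p = 0.726 by edgeR with Benjamini-Hochberg adjustment).

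Acvr1b, the activin receptor ALK4, lies 0.04 Mb from Nr4a1. It was lower in labelled KO at 0 h, 25.1, 27.3 and 26.7 CPM against 30.8, 32.4, 36 and 32.4 in WT, without overlap (log2 fold change -0.32 ± 0.08, adjusted p = 0.0227 by edgeR with Benjamini-Hochberg adjustment). That call was lost with the stromal covariate (-0.27) and on leaving out WT number 3, or number 2 or 4 of labelled KO (-0.35 to -0.28). At 4 and 18 h its differences, 0.10 and -0.13, were not called. Atg101, a subunit of the kinase complex that starts autophagy, is the nearest gene on the other side, 0.01 Mb away, and its log2 fold changes of 0.05, -0.08 and -0.23 were not called. The 3 nearest listed genes therefore went 1 up, 1 down and 1 without a call at 0 h.

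Among the other genes of receptors and signalling, Gpr84 and Adcy6 were called with at least 1.5-fold. Differences of that size without a call, such as that of Rhebl1, a relative of the small GTPase Rheb, at 0 h (1.00 ± 0.45), were also seen. Gpr84, a receptor for medium-chain fatty acids that macrophages induce on activation, was at 3.57, 2.71, 4.2 and 4.12 CPM in WT and at 2.06, 1.77 and 1.52 in labelled KO at 0 h. The groups did not overlap (-1.04 ± 0.25, adjusted p = 0.0188 by edgeR with Benjamini-Hochberg adjustment), but the call was lost without labelled-KO number 3 or number 4 (lowest and highest value over all libraries left out, -1.16 and -0.91), with limma-voom (-1.02) and with the stromal covariate (-0.96). The neutrophil markers named above were also uneven at 0 h, and their part in the difference was not tested. At 4 and 18 h Gpr84 was within 0.06 of WT on the log2 scale and was not called. In the mean of the times it was called at -0.37 ± 0.11, which was lost with limma-voom (-0.35), the replicate block (-0.26) and the stromal covariate (-0.30) and without labelled-KO number 4 at 0 h (-0.33).

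Adcy6, an adenylyl cyclase that makes cyclic AMP, was at 0.305, 0.0391, 0.402 and 0.17 CPM in WT and at 0.261, 0.35 and 1.78 in labelled KO at 18 h, from 14 and 32 counts. The groups overlapped, and labelled-KO number 4, with the highest stromal sum, alone stood above WT. The log2 fold change, 2.00 ± 0.63 (edgeR with Benjamini-Hochberg adjustment, adjusted p = 0.0196), fell to 0.58 without that library and was then not called, and the call was also lost without WT number 2, with limma-voom (1.82) and with the stromal covariate (1.43). In the mean of the times Adcy6 was called at 0.92 ± 0.30, and this was lost with the replicate block (0.74), the stromal covariate (0.40) and without any 1 of 4 libraries (0.45 to 1.06 over all left out), labelled-KO number 4 at each time and WT number 2 at 18 h. Pde1b, a phosphodiesterase that breaks cyclic nucleotides down, varied widely within groups (120, 135, 91.5 and 77.9 CPM in WT and 235, 93.2 and 154 in labelled KO at 18 h) and was not called (0.60 ± 0.31, adjusted p = 0.143 by edgeR with Benjamini-Hochberg adjustment). Map3k12, a kinase upstream of JNK, was called in the mean of the times with a difference of -0.16 ± 0.04, a call lost with the stromal covariate (-0.17).

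Cers5, a ceramide synthase, was the clearest of the enzymes. It was at 12.6, 12.5, 11.2 and 10.9 CPM in WT and at 3.4, 3.33 and 3.84 CPM in labelled KO at 18 h. The highest labelled-KO value was far under the lowest of WT, and the log2 fold change was -1.74 ± 0.15, a 3.33-fold lower level (edgeR with Benjamini-Hochberg adjustment, adjusted p = 6.45e-08). At 0 h Cers5 was at 28.6, 35.6, 33.4 and 37.4 CPM in WT and at 25.8, 24.1 and 27.2 in labelled KO, and at 4 h at 16, 14.8, 14.1 and 19.6 in WT and 14, 10.4 and 12.8 in labelled KO. These groups did not overlap either, but differences of -0.39 ± 0.11 and -0.38 ± 0.13 were not called (adjusted p = 0.0537 and 0.0757 by edgeR with Benjamini-Hochberg adjustment). Cers5 (NM_028015, chr15:99735592-99772515) lies 1.48 Mb from Nr4a1 on the centromere side, next to Lima1, and the 2 went opposite ways.

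Mfsd5, a membrane transporter, and Myg1, an exonuclease, were lower in labelled KO at 18 h (-0.38 ± 0.11 and -0.47 ± 0.15), as were Letmd1, a mitochondrial membrane protein (-0.42 ± 0.12), and Smug1, a glycosylase that removes uracil from DNA (-0.35 ± 0.13). The calls of Mfsd5 and Letmd1 were lost with the stromal covariate (-0.23 and -0.33). Those of Mfsd5, Myg1 and Letmd1 were lost without labelled-KO number 3, and that of Mfsd5 also without WT number 4, with values over all libraries left out of -0.44 to -0.30, -0.60 to -0.36 and -0.56 to -0.29. The Smug1 call was lost in 6 alternatives and without any 1 of WT numbers 2, 3 and 4 and labelled-KO numbers 2 and 4 (-0.41 to -0.30). Galnt6, which starts O-glycosylation, Csad, an enzyme of taurine synthesis, Soat2, which esterifies cholesterol, Pfdn5, a subunit of the chaperone prefoldin, and Copz1, a coatomer subunit, were not called in any of the 4 comparisons. Slc4a8, a bicarbonate transporter, held 0 to 6 counts per library and was not tested. A mean under 1 CPM was found for 5 listed genes (Tns2, Soat2, Nfe2, Troap and Rhebl1), and of them Tns2 alone was called between genotypes. In these bulk libraries fewer cells of a type and less RNA per cell cannot be told apart.

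**Figure D2:**
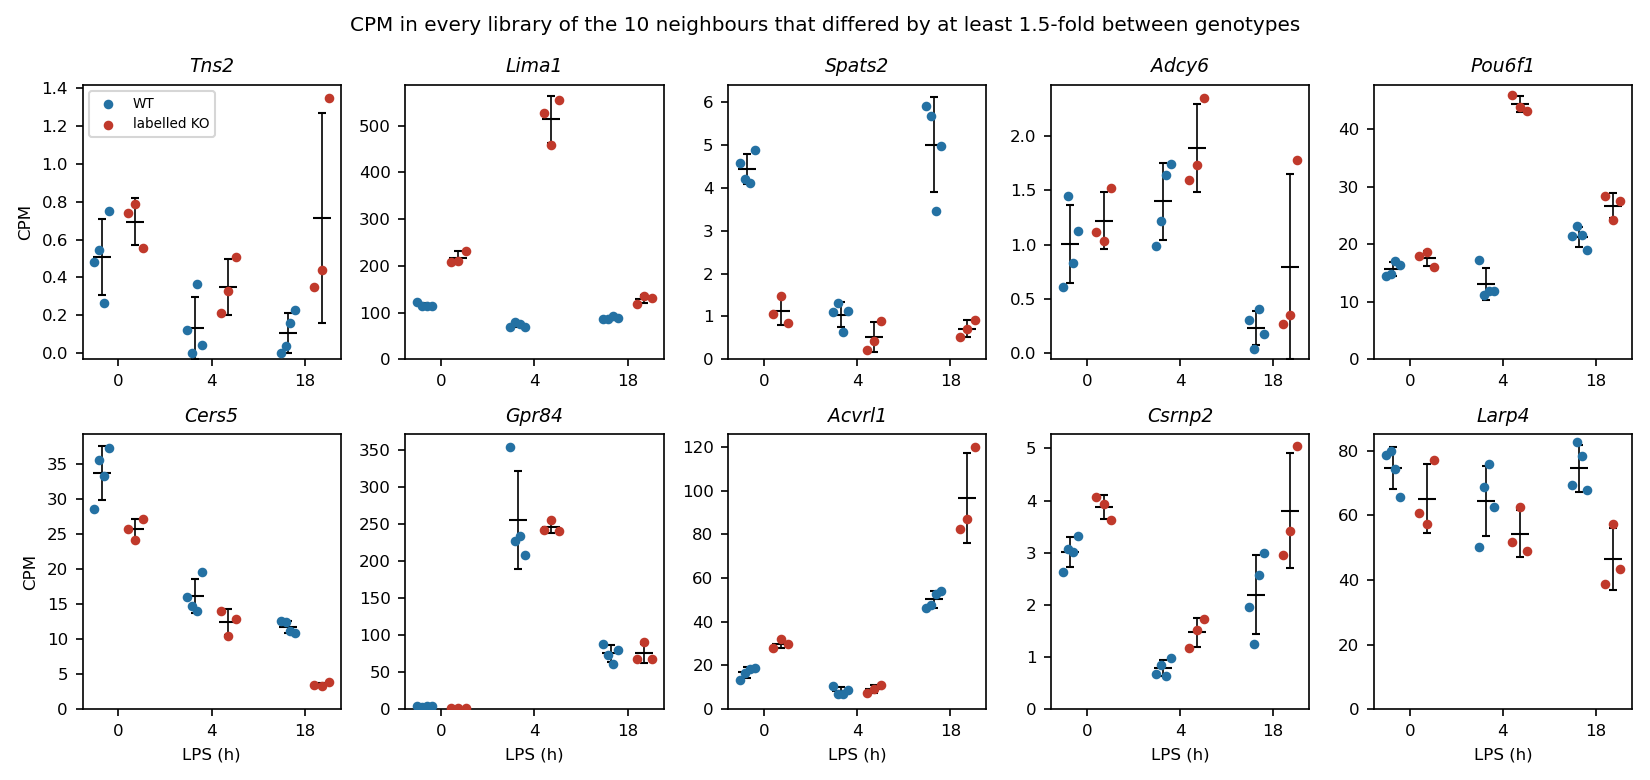
CPM (vertical axis) in every library of the 10 neighbours that were called with at least 1.5-fold between genotypes at 1 time or in the mean of the times, at 0, 4 and 18 h of LPS (horizontal axis). Points are libraries, bars are the mean and SD (n = 4 WT in blue, n = 3 labelled KO in red). Lima1 and Pou6f1 rise at 4 h in labelled KO alone, Spats2 is low in labelled KO at 0 and 18 h, and 1 labelled-KO library at 18 h holds the highest Tns2 and Adcy6 values of that time.

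Distance from Nr4a1 did not order these differences within the list. Across the 53 tested neighbours, which share libraries and depth and are not independent, Pearson's r between distance and the size of the log2 fold change was 0.09 at 0 h, -0.08 at 4 h, 0.10 at 18 h and 0.04 in the mean of the times. In the mean of the times the sign was positive for 25 neighbours and negative for 28. The sign was the same at all 3 times for 25 neighbours, 12 higher and 13 lower, which is 47.2% of the 53, and for 36.3% of all tested genes. Lima1 and Cers5, called in opposite directions in the mean of the times, show how mixed the stretch was. Acvrl1 and Acvr1b went opposite ways at 0 h alone, and the Acvr1b call did not hold in every fit.

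The whole of chromosome 15 was set beside the list, counting tested genes called with at least 1.5-fold in the mean of the times. Up to 3 Mb from Nr4a1 there were 13 of 84 (15.5%, against 6.63% of all tested genes). By distance there were 6 of 27 within 1 Mb (22.2%), 5 of 33 between 1 and 2 Mb (15.2%), 2 of 24 between 2 and 3 Mb (8.33%) and 6 of 27 between 3 and 10 Mb (22.2%). Further out there were 9 of 221 between 10 and 30 Mb (4.07%) and 11 of 148 beyond 30 Mb (7.43%). On other chromosomes 3 windows, each within 3 Mb of a gene that had differed strongly in these data, held similar or larger shares. There were 11 of 34 around Tnfrsf10b on chromosome 14 (32.4%), 4 of 13 around Mtus1 on chromosome 8 (30.8%) and 11 of 57 around Trim12a on chromosome 7 (19.3%). Each of these counts leaves out the gene named. The counts still include Adra1a, Zdhhc2 and Trim30d (log2 fold changes of 2.11, -2.90 and -0.99 in the mean of the times, all called). These genes too were known to differ, so the windows were chosen on the differences counted in them. The shares were not tested against one another.

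**Figure D3:**
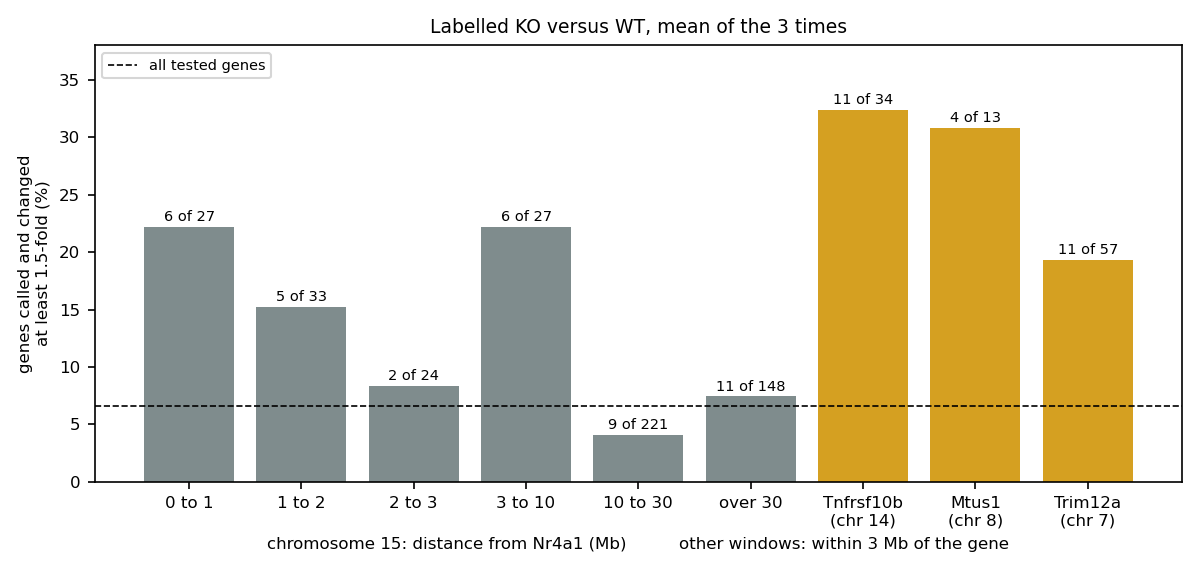
Share of tested genes that were called with at least 1.5-fold in the mean of the times (vertical axis, %), in classes of distance from Nr4a1 on chromosome 15 (grey bars) and in windows around 3 other genes chosen for their strong differences (yellow bars). The number of genes is above each bar and the dashed line is the share of all tested genes, 6.63%. The share is 22.2% within 1 Mb of Nr4a1 and again between 3 and 10 Mb, and it is largest around Tnfrsf10b, at 32.4%.

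Other tested genes lie among the listed ones. There were 29 of them, besides Nr4a1, and 7 were called at 0 h (24.1%, against 3.98% of all tested genes), 8 at 4 h (27.6%, against 5.56%), 13 at 18 h (44.8%, against 32.2%) and 11 in the mean of the times (37.9%, against 25.1%). How far these counts hold in the alternative fits is not given here. The calls of Asic1 and Racgap1 at 0 h, described below, were lost without single libraries. Of the 11 called in the mean of the times, 5 differed by at least 1.5-fold (17.2% of the 29, against 6.63% of all tested genes). The clearest were a pair of relatives that sit side by side, Mettl7a1 and Mettl7a3, which encode methyltransferase-like proteins. Mettl7a1 was at 28.9, 28.4, 26 and 25.5 CPM in WT and 8.68, 8.87 and 10.5 in labelled KO at 0 h, and was lower in labelled KO at all 3 times (-1.54 ± 0.11, -1.31 ± 0.14 and -0.79 ± 0.11). Mettl7a3 held 3, 0 and 1 counts over the 4 WT libraries at 0, 4 and 18 h, and 74, 13 and 61 counts over the 3 labelled-KO libraries. It was called higher in labelled KO at each time by edgeR with Benjamini-Hochberg adjustment (adjusted p = 1.8e-05, 0.00438 and 2.8e-06). Reads of similar genes can be assigned to either copy, which was not examined here, so how far each of them changed is uncertain.

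The other 3 genes of that size, Racgap1, Asic1 and Gpd1, lie 1.60, 1.55 and 1.53 Mb from Nr4a1 on the centromere side, near Smarcd1 and Cers5, and all were lower in labelled KO. Asic1, an acid-sensing channel, had a log2 fold change of -1.17 ± 0.21 in the mean of the times, and Racgap1, a regulator of cell division, one of -0.70 ± 0.12. These 2 calls were kept in every alternative and without each library. At 0 h the Asic1 call was lost in 4 alternatives and without any 1 of the 7 libraries (-1.20 to -0.95). The Racgap1 call at 0 h was lost without any 1 of 5 libraries (-0.70 to -0.53 over all left out). Mean levels were low for Asic1, at 0.952 CPM, and for Mettl7a3, at 0.458 CPM. Gpd1, a glycerol-phosphate dehydrogenase, held 36 counts in WT and 2 in labelled KO at 18 h, and 72 and 23 at 0 h.

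With LPS, the neighbours moved much as other genes did. In WT 40 of the 53 were called at 4 h, 14 higher (35.1% of all tested genes were called higher) and 26 lower (43%), and 37 at 18 h, 19 higher (34.8%) and 18 lower (36.3%). The LPS calls in labelled KO numbered 38 at 4 h, of which 16 were higher (33.5%) and 22 lower (41.5%), and 40 at 18 h, of which 19 were higher (34.5%) and 21 lower (38.5%). The split of LPS calls depends on the scaling. With upper-quartile factors the median LPS change of all genes, on the log2 scale, moved from -0.17 to -0.52 in WT at 4 h, and the neighbours called there became 10 higher and 35 lower. At 18 h in WT that scaling gave 16 higher and 23 lower, and in labelled KO 10 and 29 at 4 h and 13 and 29 at 18 h. Of all 12529 tested genes it called 3359 higher and 6935 lower in WT at 4 h, and 3516 and 5591 at 18 h. In labelled KO it called 3294 and 6582 of them at 4 h, and 3539 and 5838 at 18 h.

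The largest rise was that of Gpr84, from 3.65 ± 0.69 CPM (SD, n = 4) in WT at 0 h to 255 ± 66.1 at 4 h and 75.6 ± 11.5 at 18 h. The labelled-KO libraries went from 1.79 ± 0.27 (SD, n = 3) to 245 ± 8.49 and 75.1 ± 13. The log2 rises were 6.14 ± 0.19 and 4.38 ± 0.18 in WT. Tmbim6, a membrane protein of the endoplasmic reticulum that limits cell death, went from 445 ± 15 CPM to 1081 ± 117 and 1065 ± 63.9 in WT, and from 457 ± 21 to 1091 ± 18.6 and 1232 ± 83.2 in labelled KO. Pde1b rose by 1.31 ± 0.29 at 4 h and 1.33 ± 0.29 at 18 h in WT.

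Acvrl1 moved down at 4 h and up at 18 h in both genotypes, by -0.99 ± 0.15 and 1.58 ± 0.14 in WT and by -1.68 ± 0.18 and 1.69 ± 0.16 in labelled KO. Bin2 had the deepest fall at 4 h, from 66 ± 6.84 to 6.67 ± 2.21 CPM in WT and from 83.6 ± 3 to 5.09 ± 0.62 in labelled KO. Calcoco1, an adaptor for degradation of the endoplasmic reticulum, fell at both times in both genotypes (-1.86 ± 0.10 and -2.34 ± 0.10 in WT, -2.02 ± 0.12 and -2.51 ± 0.12 in labelled KO). Aaas, a nuclear pore protein, and Tfcp2 fell at 4 h in WT by 1.92 and 1.79 on the log2 scale. At 18 h Aaas was still lower (-0.47) and Tfcp2 was not called (0.23). These changes and those of Gpr84, Tmbim6 and Pde1b were far past the threshold by edgeR with Benjamini-Hochberg adjustment at 4 h, with adjusted p of 0.000339 or less in WT.

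Whether the genotypes differed in their response to LPS was tested as an interaction, the LPS change in labelled KO minus that in WT. At 4 h 2 of the 53 neighbours were called (3.77%, against 0.798% of all tested genes), Lima1 and Pou6f1. With DESeq2 the count was 5, and without WT number 1 at 4 h it was 4, the first 2 among them in both. DESeq2 also called more of all 12529 tested genes, 204 in place of 100. For the fit without WT number 1 the number over all genes is not given here. Lima1 fell by 0.66 on the log2 scale in WT and rose by 1.25 ± 0.08 in labelled KO, an interaction of 1.91 ± 0.11 (adjusted p = 9.96e-10 by edgeR with Benjamini-Hochberg adjustment). Pou6f1 went by -0.26 ± 0.11 in WT and by 1.34 ± 0.12 in labelled KO, an interaction of 1.59 ± 0.17 (adjusted p = 9.63e-06 by edgeR with Benjamini-Hochberg adjustment). The fall of Pou6f1 in WT was barely called (adjusted p = 0.0421 by edgeR with Benjamini-Hochberg adjustment), and with the replicate number as a block, which pairs WT libraries of these times, it was not (-0.26, edgeR's Benjamini-Hochberg adjusted p = 0.0515). That call was also lost in 5 other alternatives (-0.25 to -0.17) and without WT number 3 or 4 at 0 h or WT number 2, 3 or 4 at 4 h (-0.42 to -0.20 over all libraries left out). These were the 2 neighbours called in opposite directions at 4 h, where 13 were called higher in both genotypes (24.5%, against 31.7% of all tested genes) and 21 lower in both (39.6%, against 38.4%). At 18 h 17 were higher in both (32.1%, against 29.9%) and 14 lower in both (26.4%, against 31.3%).

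At 18 h 7 neighbours were called for the interaction (13.2%, against 17.6% of all tested genes), 2 positive and 5 negative, and with upper-quartile factors 8, 1 and 7. Over all tested genes the calls were 1074 positive and 1128 negative, and with upper-quartile factors 959 and 1338. Cers5 fell by 1.51 in WT and by 2.86 in labelled KO, an interaction of -1.35 ± 0.19 (adjusted p = 7.21e-05 by edgeR with Benjamini-Hochberg adjustment). Bin2 rose by 0.74 ± 0.12 in WT and was not called in labelled KO (-0.09), an interaction of -0.83 ± 0.18. Mfsd5 and Smug1 had interactions of -0.63 ± 0.16 and -0.61 ± 0.17, and that of Lima1 was -0.36 ± 0.11. The Smug1 call was lost without labelled-KO number 2 or 3 at 0 h or number 4 at 18 h (-0.71 to -0.56). The Lima1 call was lost with median-of-ratios factors (-0.31) and without labelled-KO number 4 at 0 h or number 2 at 18 h (-0.40 to -0.31). Gpr84 rose further in labelled KO, by 5.41 against 4.38 (1.02 ± 0.30), a call lost with limma-voom (1.00) and on leaving out labelled-KO number 3 or 4 of 0 h or number 3 of 18 h (0.87 to 1.14). Rarg, a retinoic acid receptor, fell less in labelled KO (0.43 ± 0.14, adjusted p = 0.0428 by edgeR with Benjamini-Hochberg adjustment), and that call was lost in 3 alternative fits and without any 1 of 11 libraries (0.38 to 0.51), which are all 7 of 0 h and, at 18 h, WT numbers 1 and 4 and labelled-KO numbers 3 and 4. The count of 7 fell to 4 without labelled-KO number 3 at 0 h. Across the 53 neighbours the LPS changes of the 2 genotypes had an r of 0.94 at 4 h and 0.88 at 18 h, against 0.96 and 0.92 over all tested genes.

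**Figure D4:**
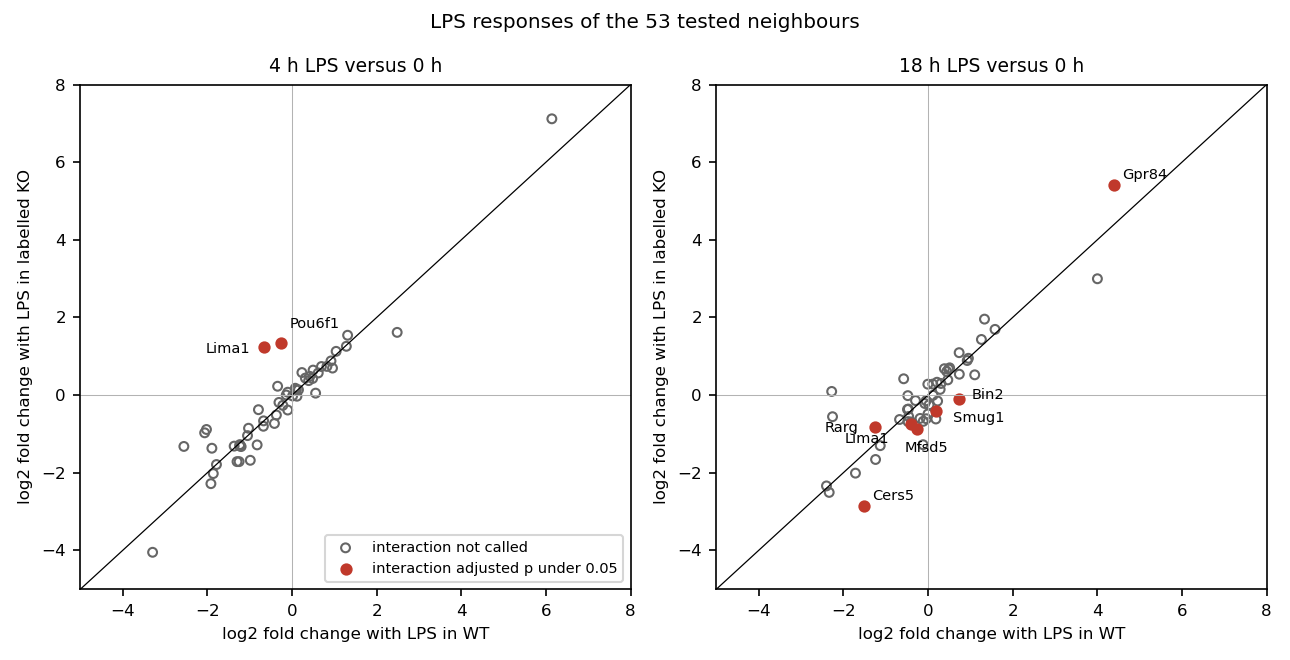
Log2 fold change with LPS in labelled KO (vertical axis) against that in WT (horizontal axis) for the 53 tested neighbours, at 4 h (left) and 18 h (right). Filled points have an interaction with an adjusted p under 0.05, and the diagonal marks equal changes. Lima1 and Pou6f1 lie above the diagonal at 4 h, with a fall in WT and a rise in labelled KO, and Cers5 lies furthest below it among the called genes at 18 h.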

How the data were processed

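Poly(A) RNA was sequenced after KAPA mRNA HyperPrep library preparation, per the labels' protocols, with CASAVA 1.8.2, HISAT2 2.1.0 and mm10 named in the submitters' processing notes. The tool that counted the reads, and how it used strand and shared reads, was not given in the sources used here. The authors deposited estimated counts for RefSeq transcripts, in steps of 0.5, which were rounded here, although the design had assumed whole numbers. Of 42361 transcript IDs, 42198 matched RefSeq's table of GRCm38.p6 and 70 GENCODE, and 93 without a gene name (0.232 to 2.229% of counts) were left out. In the 8193 genes with several transcripts the second carried nearly the same counts as the first (median ratio 0.9923).

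edgeR 4.0.16 (R 4.3.3) was fitted to all 21 libraries with 6 group means, TMM (trimmed mean of M-values) factors and its default filter. SE is the log2 fold change over the square root of F, and CPM uses TMM library sizes. Alternatives were DESeq2 1.42.0, limma-voom 3.58.1, other factors and filters, summed transcripts, only the groups compared, the replicate block, a stromal covariate and leaving out each library. Named were members called with at least 1.5-fold between genotypes, up to 6 of each sign called in an interaction, the 4 largest LPS rises and falls in WT at a mean of at least 5 CPM, and up to 6 other genes of the stretch at 1.5-fold. Members, lists, windows and motifs were chosen with earlier results of these data known. Same-numbered WT libraries at 0 and 4 h deviated together (r 0.23 to 0.32, against -0.23 to 0.09 for other numbers), from the data and not the labels. In no other comparison did every same-numbered pair exceed 0.1. The fit was tested on simulated data. Figures used matplotlib 3.10.9.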

Additional observations from a re-analysis of the deposited data

Results flagged for a closer look

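A difference between genotypes in the response to LPS, tested as the interaction of edgeR's quasi-likelihood fit with Benjamini-Hochberg adjustment over all tested genes, was found for these neighbours on the log2 scale. At 4 h it was 1.91 for Lima1 and 1.59 for Pou6f1. At 18 h it was 1.02 for Gpr84, 0.43 for Rarg, -1.35 for Cers5, -0.83 for Bin2, -0.63 for Mfsd5, -0.61 for Smug1 and -0.36 for Lima1. The calls of Gpr84, Rarg, Smug1 and Lima1 at 18 h were lost in some alternative fits or without single libraries, as given above. The share of tested neighbours called was 3.77% at 4 h (0.798% of all tested genes) and 13.2% at 18 h (17.6%).

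Single libraries of WT stood apart from the other 3 of their group for 3 of the named neighbours and for Nr4a1. The gap was judged against the range of the group, not by its size in CPM. Only WT groups, with 4 libraries each, were screened, so labelled-KO libraries that stand apart are not listed here. Lima1 was at 93.1 CPM in WT number 3 at 18 h, Pou6f1 at 17.3 CPM in WT number 1 at 4 h, and Calcoco1 at 59.7 CPM in WT number 1 at 0 h. Nr4a1 was at 7.25 CPM in WT number 1 at 4 h. Chance alone would mark about 1 in 20 groups in this way. All 3 WT groups of Acvr1b, Nr4a1, Mettl7a1 and each neighbour picked by the naming rule were screened. A few marks of this kind would therefore arise by chance. Without WT number 1 at 4 h Pou6f1 was still called higher in labelled KO, and the number of neighbours with an interaction at 4 h was 4 in place of 2.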

How the results depend on the processing

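Of 127 called values of single genes, 89 kept their direction and their side of the threshold in all alternatives and without each library in turn, 32 lost the call in at least 1 alternative, 33 lost it without some library and 0 changed sign. The number of neighbours called at 18 h moved from 19 to 9 with the mean of the stromal markers as a covariate, and that in the mean of the times from 16 to 8. The number with an interaction at 4 h moved from 2 to 5 with DESeq2. Over all tested genes the same numbers moved from 4034 to 2692, from 3149 to 1137 and from 100 to 204. All other alternatives that kept every library left the counts within 1.5 times. Leaving out 1 library at a time gave 3 to 6 neighbours called at 0 h, 2 to 3 at 4 h, 11 to 18 at 18 h and 14 to 18 in the mean of the times, 2 to 4 and 4 to 9 for the interactions at 4 and 18 h, and 38 to 41, 36 to 37, 36 to 38 and 36 to 39 for LPS in WT at 4 and 18 h and in labelled KO at 4 and 18 h. The replicate number as a block gave 7, 2, 19 and 13 neighbours called at 0, 4 and 18 h and in the mean of the times, 2 and 6 for the interactions, and 38, 38, 38 and 40 for LPS. Same-numbered WT and labelled-KO libraries of a time correlated at -0.34 to 0.16 in their deviations, and those of different numbers at -0.35 to 0.32. No pairing of the genotypes by number was seen, but 3 same-numbered pairs per time are too few to decide it. A fit of only the groups compared does not apply to the mean of the times, which uses all of them. The cause of these moves was not tested. Depth limits Tns2, Adcy6, Troap, Rhebl1 and Nfe2, whose libraries held 0 to 41 counts.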
